A study of Mus musculus with 12 samples.

Results

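The R-spondin axis was followed through 9 genes of the count table, out of 23358 rows in all: the receptor genes Lgr4, Lgr5 and Lgr6, the ligand genes Rspo1, Rspo2, Rspo3 and Rspo4, and the ubiquitin ligase genes Znrf3 and Rnf43. They were taken by gene name as one receptor family with its ligands and targets. The family was chosen by the measured changes of Lgr6 with GSK126 and BMP2 on day 6 of these same libraries. The values of Lgr6 are therefore given as a description without a test. The other 8 genes entered by family membership, and 5 of them, Lgr4, Rspo2, Rspo3, Znrf3 and Rnf43, reached the minimum of 1 CPM (counts scaled to a common library size) in at least 2 libraries and were tested.

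The cells were MC3T3 sc4, a clonal pre-osteoblast line from the calvaria of C57BL/6 mice, at passage 12. The 12 RNA-seq libraries covered day 6 and day 1 in osteogenic medium with ascorbic acid and β-glycerol phosphate, which every culture received. On each day cells received 5 µM GSK126, an inhibitor of the histone methyltransferase EZH2, together with BMP2 at 0, 10 or 50 ng/ml, or BMP2 at 0, 10 or 50 ng/ml without GSK126, where 0 ng/ml without GSK126 is the vehicle. Each condition had 1 library, so the tests draw their error from the libraries of the other conditions. Separate cultures are not named in the labels, so the p-values cover no more than the spread seen among the 12 libraries.

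LGR4, LGR5 and LGR6 are seven-transmembrane receptors for the secreted R-spondins. ZNRF3 and RNF43 are membrane ubiquitin ligases that remove Frizzled and LRP6, the Wnt receptors, from the cell surface. An R-spondin bridges an LGR to ZNRF3 or RNF43 and clears the ligase from the membrane, which raises the response of the cell to Wnt. In bone, Wnt signalling through β-catenin promotes osteoblast formation, and Rspo2 loss in mouse osteoblasts lowers bone mass. Rnf43 and Znrf3 are themselves Wnt target genes in the mouse intestine.

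The 250 bases before the annotated starts of Lgr6 and Rnf43 are shown because these members had the largest differences between the days, in opposite directions. They come from RefSeq on GRCm38.p6, which held a promoter entry for 5 of the 9 members, and capitals mark each CG. The Lgr6 stretch lies at chr1:135105277-135105526 on the minus strand and the Rnf43 stretch at chr11:87662837-87663086 on the plus strand.
Lgr6: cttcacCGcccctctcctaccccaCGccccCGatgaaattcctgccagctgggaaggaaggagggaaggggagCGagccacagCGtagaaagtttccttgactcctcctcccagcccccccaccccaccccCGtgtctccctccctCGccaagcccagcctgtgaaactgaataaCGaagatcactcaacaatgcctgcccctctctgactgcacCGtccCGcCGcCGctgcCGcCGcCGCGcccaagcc
Rnf43: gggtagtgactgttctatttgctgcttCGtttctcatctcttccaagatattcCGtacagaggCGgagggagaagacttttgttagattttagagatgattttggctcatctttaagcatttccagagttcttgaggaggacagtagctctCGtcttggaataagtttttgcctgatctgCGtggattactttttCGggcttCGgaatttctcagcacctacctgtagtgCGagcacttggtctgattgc
The Lgr6 stretch held 16 CG dinucleotides, more than 74.6% of the 32851 RefSeq stretches of this length. The Rnf43 stretch held 8, more than 57.0% of them, and the median was 6. Neither held GGCGCC, a SMAD motif, CTTTGA, a TCF/LEF motif, or TGTGGT, a RUNX motif, on either strand; GGCGCC is its own reverse complement and none of the 3 overlaps another. Of all stretches, 9.59% held GGCGCC, 13.8% held CTTTGA and 14.0% held TGTGGT. A second Rnf43 entry, starting at chr11:87699647-87699896, held 2 CG.

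Total counts were 74301112 to 113744802 per library. All counts were even, so each was read as 2 mates of 1 pair, and intervals for counting error alone (95%, exact Poisson) were taken from the pairs. A floor of 3 pairs, the one-sided limit for a count of 0, came to 0.0486 to 0.0923 CPM, whereas the printed counting intervals are two-sided. CPM values use TMM scaling and serve for comparing libraries, whereas genes were compared with each other on the deposited RPKM, which is per length. Reads of the ribosomal precursor Rn45s made up 13.1% to 21.66% of a day 6 library and 8.96% to 11.71% of a day 1 library. The 8 osteoblast markers summed to 29500 to 89900 CPM on day 6 and 19300 to 23700 CPM on day 1, and none was at or under 3 pairs in every library of a day.

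Lgr6 lies at chr1:134986353-135105276 (mm10, as in the deposited table), on the minus strand in the GENCODE annotation. On day 1 it was an abundant receptor gene. On day 6 it was close to undetected, except where BMP2 and GSK126 were combined or BMP2 was given at its higher dose. With GSK126 on day 6 it had 0.134 CPM without BMP2, 2.45 CPM at 10 ng/ml and 29.3 CPM at 50 ng/ml. Without GSK126 on day 6 it had 0.0431, 0.105 and 1.97 CPM at 0, 10 and 50 ng/ml. The 3 lowest of these libraries held 6, 4 and 2 read pairs, and their counting intervals overlapped. The intervals of GSK126 with 10 ng/ml (2.04 to 2.92 CPM) and of 50 ng/ml alone (1.52 to 2.52 CPM) overlapped as well, whereas the library with GSK126 and 50 ng/ml (27.7 to 31.0 CPM) stood above all others of that day.

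On day 1 Lgr6 had 65.7, 121 and 146 CPM with GSK126 at 0, 10 and 50 ng/ml BMP2, and 55.4, 105 and 136 CPM without GSK126. All 6 day 1 libraries were above all 6 day 6 libraries, and within day 1 the level followed the BMP2 dose in both series. The order on day 1, from the highest, was GSK126 with 50 ng/ml, 50 ng/ml, GSK126 with 10 ng/ml, 10 ng/ml, GSK126 and vehicle, and no neighbouring counting intervals overlapped. Whether these neighbours differ beyond the spread between cultures cannot be told from 1 library each.

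**Figure D1:**
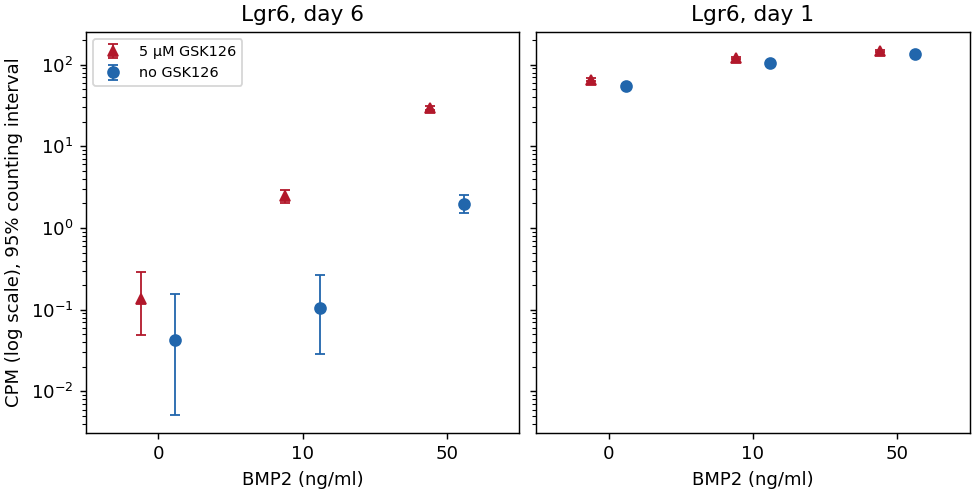
Lgr6 level in each of the 12 libraries (CPM, log axis) against BMP2 dose (ng/ml), day 6 in the left panel and day 1 in the right one. Triangles are libraries with GSK126, circles those without, and bars are 95% counting intervals. On day 6 the points span 0.0431 to 29.3 CPM and on day 1 55.4 to 146 CPM.

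The GSK126 ratio of Lgr6 on day 6 was 3.1 without BMP2, with a counting interval of 0.554 to 31.4 that includes 1. It was 23.4 (8.9 to 87.1) at 10 ng/ml and 14.9 (11.6 to 19.4) at 50 ng/ml. On day 1 the same ratios were 1.19, 1.16 and 1.07. BMP2 at 50 ng/ml gave 219 times the level of no BMP2 under GSK126 on day 6 (101 to 599) and 45.7 times without GSK126 (12.2 to 386). On day 1 the ratio at 50 ng/ml was 2.22 with GSK126 and 2.46 without it.

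The level of each combination is given beside the levels of the single agents, as a description of 1 library each. With 10 ng/ml BMP2 the combination had 2.45 CPM, against 0.196 CPM for the sum of both changes over vehicle and 0.326 CPM for their product. With 50 ng/ml it had 29.3 CPM, against 2.06 CPM for the sum and 6.12 CPM for the product. The product divides by the vehicle library, whose 2 read pairs allow 0.00522 to 0.156 CPM, so no order between the combination and the product can be read on day 6. On day 1 the combinations had 121 and 146 CPM, against 115 and 146 CPM for the sum and 125 and 161 CPM for the product.

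The smallest difference of Lgr6 between the days was in the combination with 50 ng/ml BMP2, where day 6 had 4.98 times less than day 1 (4.69 to 5.29). With 50 ng/ml alone the day 6 level was 69.4 times lower, and with GSK126 and 10 ng/ml 49.5 times lower. In the vehicle libraries 2 read pairs on day 6 stood against 2226 on day 1, a ratio of 0.000777 with a counting interval of 9.41e-05 to 0.00281. In bulk RNA, fewer cells of a type and less RNA per cell cannot be told apart.

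The level of another cell type's markers also differed between these libraries. The 5 chondrocyte markers summed to 313 to 1210 CPM with GSK126 and 91.6 to 411 CPM without it on day 6, and to 2740 to 4220 CPM and 2350 to 3790 CPM on day 1. Most of this was Col2a1, at 64.8 to 1190 CPM on day 6 and 2310 to 4150 CPM on day 1, while Acan was at or under 3 pairs in all 12 libraries. Of the 3 chondrocyte markers tested, Col2a1 (-3.51 ± 0.12) and Sox9 (-1.06 ± 0.11) were called lower and Col9a1 (2.09 ± 0.73) higher on day 6. With GSK126 on day 6 Col2a1 (2.15 ± 0.17) and Col9a1 (5.9 ± 0.73) were called higher. Col9a1 was at or under 3 pairs in every day 6 library without GSK126. On day 6 it could thus reach the minimum of 1 CPM only with GSK126, and its calls are given as a description. With BMP2 on day 6 Col2a1 (1.61 ± 0.18) was called higher, while Sox9 had -0.32 ± 0.16 with GSK126 and -0.0 ± 0.17 with BMP2. The osteoblast sums on day 6 were 38500 to 89900 CPM with GSK126 and 29500 to 75400 CPM without it. Of the 8 osteoblast markers, 7 were called higher and 0 lower on day 6, where 78.0% of all genes were called. With GSK126 on day 6, 5 were higher and 0 lower (median log2 change 1.21), where 28.3% of all genes were called. With BMP2 on day 6, 8 were higher and 0 lower (median 1.63), where 28.7% were called. The part of cell composition in the Lgr6 values was not tested.

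Lgr4, the broadly expressed receptor of the family, changed far less. On day 6 it had 32.2, 41.9 and 50.6 CPM with GSK126 at 0, 10 and 50 ng/ml BMP2, and 29.5, 28.8 and 48.0 CPM without GSK126. On day 1 it had 54.3, 61.5 and 58.4 CPM with GSK126, and 52.5, 55.2 and 53.9 CPM without it. Every day 6 library was below every day 1 library, and the day 6 libraries with 50 ng/ml BMP2 came nearest to day 1. Lgr5, the stem cell marker of gut and hair follicle, held at most 5 read pairs in 11 libraries. The exception was GSK126 alone on day 6, with 21 pairs or 0.467 CPM, against 4 pairs in the day 6 vehicle library, a ratio of 5.42 (1.83 to 21.7). The row of the RIKEN gene A930009A15Rik overlaps the Lgr5 span, and reads shared between these genes cannot be told apart.

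Per length, the receptor pool therefore had a different make-up on the 2 days. Lgr6 made up 0.568%, 7.53% and 44.7% of the summed Lgr4, Lgr5 and Lgr6 RPKM on day 6 with GSK126 at 0, 10 and 50 ng/ml, and 0.203%, 0.506% and 5.41% without GSK126. On day 1 its share was 62.8%, 73.3% and 77.7% with GSK126, and 59.6%, 72.6% and 78.0% without it. The sum of the 3 receptor genes was 4.24 to 13.1 RPKM on day 6 and 21.5 to 44.7 RPKM on day 1. The day 6 library with GSK126 and 50 ng/ml BMP2 had the highest sum of its day.

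**Figure D2:**
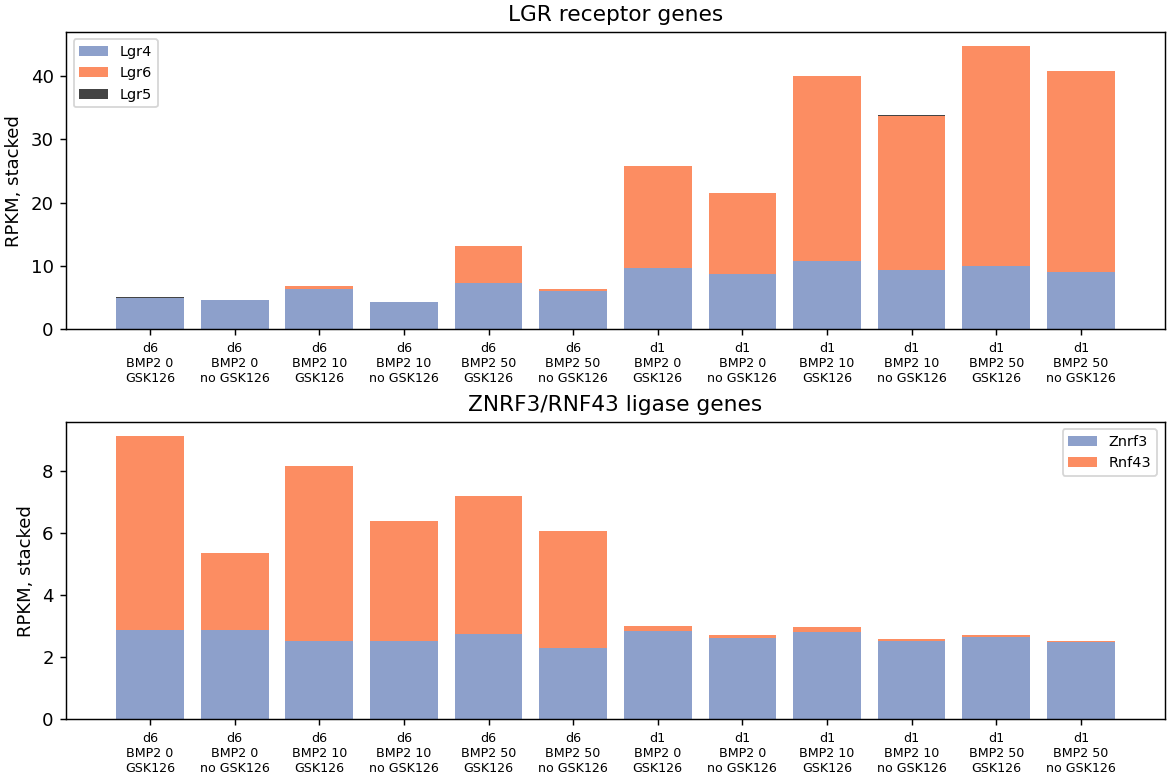
Deposited RPKM (vertical axis, linear) of the LGR receptor genes in the upper panel and the ligase genes in the lower one, stacked per library, with day 6 libraries (d6) left of day 1 libraries (d1). Lgr6 is the larger part of the receptor bars on day 1 and Rnf43 is nearly absent from the ligase bars on day 1, where its share is 1.71% to 5.46%.

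Among the ligands, Rspo2 carried most of the R-spondin RNA, at 71.6% to 81.4% of the summed R-spondin RPKM on day 6 and 89.7% to 96.1% on day 1. On day 6 Rspo2 had 5.65, 3.74 and 2.32 CPM with GSK126 at 0, 10 and 50 ng/ml BMP2, and 8.42, 4.61 and 3.2 CPM without GSK126. The gene lies at chr15:43020795-43170818 on the minus strand. On day 1 it had 45.4, 30.5 and 22.2 CPM with GSK126, and 40.6, 28.4 and 20.9 CPM without it. Each of these 4 series stepped down with the BMP2 dose, and every day 6 library was below every day 1 library. The Lgr6 values rose with the dose in the same 4 series. Without GSK126 on day 6, however, its step from 0 to 10 ng/ml was from 2 to 4 read pairs, a ratio of 2.43 (0.349 to 26.9). Because the day 6 changes of Lgr6 chose this family, the opposite dose order of receptor and main ligand is only a description. Both were lower on day 6.

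Rspo3, the second R-spondin by RPKM in every library but that of day 6 with 50 ng/ml BMP2, had 1.25, 0.836 and 0.493 CPM on day 6 with GSK126 at 0, 10 and 50 ng/ml, and 2.13, 0.681 and 0.246 CPM without GSK126. On day 1 it had 1.5, 1.56 and 1.31 CPM with GSK126, and 1.02, 1.14 and 1.71 CPM without it. The days overlapped, since the day 6 vehicle library was the highest of all 12. Rspo4 held 3 to 12 pairs on day 6 and 0 to 7 on day 1. Rspo1 had 2 pairs in the day 6 library with GSK126 and 10 ng/ml BMP2 and 0 pairs in the other libraries.

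The ligase gene Rnf43 showed the reverse of Lgr6 between the days. On day 6 it had 34.6, 32.1 and 26.6 CPM with GSK126 at 0, 10 and 50 ng/ml BMP2, and 13.4, 22.5 and 26.1 CPM without GSK126. On day 1 it had 0.731, 0.794 and 0.426 CPM with GSK126, and 0.598, 0.328 and 0.219 CPM without it, from 11 to 49 read pairs per library. No day 6 library came near the day 1 range, and the vehicle library was the lowest of day 6. The gene spans chr11:87663087-87735539 in the deposited table and lies on the plus strand in the GENCODE annotation. The RIKEN gene 1110028F11Rik, whose row overlaps that span, held 10 to 23 pairs on day 6 and 0 or 1 on day 1. Reads shared between the 2 genes cannot be told apart.

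Znrf3, the paralogue of Rnf43, stayed within a narrow range. It had 23.4, 20.9 and 23.9 CPM on day 6 with GSK126 at 0, 10 and 50 ng/ml and 23.0, 21.4 and 23.1 CPM without GSK126. On day 1 it had 20.1, 20.1 and 19.3 CPM with GSK126 and 19.5, 18.8 and 18.4 CPM without it. Rnf43 thus made up 46.1% to 69.2% of the summed ligase RPKM on day 6 and 1.71% to 5.46% on day 1. The sum was 5.33 to 9.12 RPKM on day 6 and 2.51 to 3.0 RPKM on day 1.

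**Figure D3:**
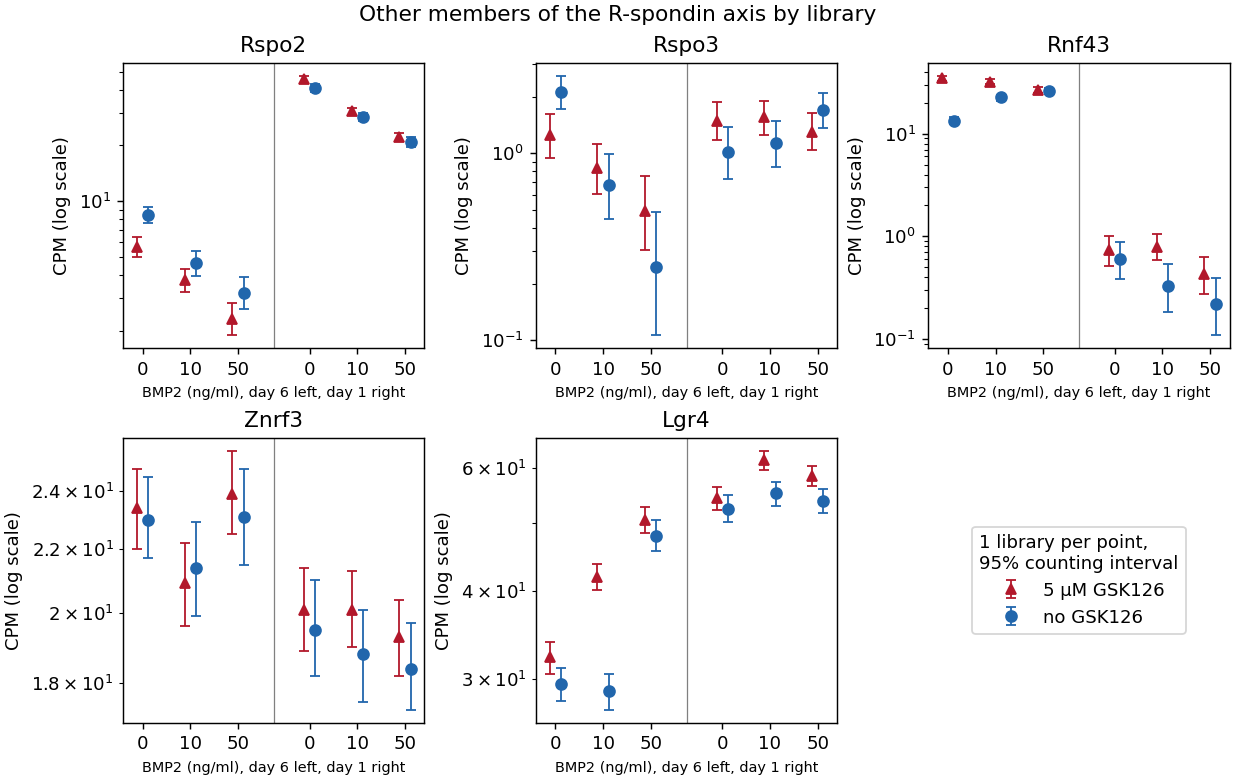
Level of 5 other members in each library (CPM, log axes that differ between panels), day 6 to the left of the vertical line and day 1 to the right, by BMP2 dose (ng/ml). Triangles are libraries with GSK126 and circles those without, with 95% counting intervals. Rspo2 steps down with dose on both days, and Rnf43 lies between 13.4 and 34.6 CPM on day 6 and between 0.219 and 0.794 CPM on day 1.

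Averaged over the 6 treatments, the 5 tested members were called between day 6 and day 1, in a comparison where 40.5% of the 12056 tested genes were called higher and 37.5% lower on day 6 (78.0% in either direction). A call of any kind is thus the common outcome of this comparison, and the sizes say more than the count. Rnf43 rose by 5.73 ± 0.23 on the log2 scale (SE; edgeR adjusted p = 9.3e-07), with ratios of 22.5 to 119 in the 6 matched pairs. Rnf43 reached the minimum of 1 CPM in 6 day 6 libraries and 0 day 1 libraries, so it was tested through the day where it was high and had to differ between the days. Rspo2 had a log2 change of -2.81 ± 0.05 (edgeR adjusted p = 5.2e-08) and was lower in 6 of 6 pairs. Lgr4 changed by -0.57 ± 0.06 (edgeR adjusted p = 0.00013), also lower in 6 of 6.

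Rspo3 changed by -0.8 ± 0.24 between the days (edgeR adjusted p = 0.018) but was 2.09 times higher on day 6 in the vehicle pair. Its call was lost when any 1 of 4 libraries was left out, namely 50 ng/ml, GSK126 or GSK126 with 10 ng/ml on day 1 or 10 ng/ml on day 6, with log2 changes of -0.63, -0.7, -0.73 and -0.72. Znrf3 rose by 0.22 ± 0.03 (edgeR adjusted p = 0.00049), and by 0.01 (adjusted p = 0.8) with library size alone as the scaling. That scaling shifted the median of all tested genes to -0.18 between the days, against 0.03 with TMM, and its split was 25.5% higher and 51.7% lower.

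GSK126 on day 6 lowered Rspo2 and left the other 4 tested members uncalled, in a comparison where 28.3% of genes were called, 14.3% higher and 14.0% lower. Rspo2 changed by -0.45 ± 0.07 (edgeR adjusted p = 0.0036), with ratios of 0.671, 0.812 and 0.726 at 0, 10 and 50 ng/ml BMP2. The call was lost when day 6 was fitted alone (adjusted p = 0.11) and when both BMP2 doses were taken as 1 level (adjusted p = 0.28). On day 1 Rspo2 changed by 0.12 ± 0.06 (edgeR adjusted p = 0.81), and the difference between the days was -0.57 ± 0.09 (edgeR adjusted p = 0.01) against a background of 10.5% called, 3.94% higher and 6.52% lower. That difference was no longer called without any 1 of the 6 day 1 libraries, with adjusted p of 0.057 to 0.07.

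The GSK126 ratio of Rnf43 on day 6 was 2.58 (2.35 to 2.83) without BMP2, 1.43 (1.31 to 1.55) at 10 ng/ml and 1.02 (0.931 to 1.11) at 50 ng/ml. The average change was 0.63 ± 0.24 (edgeR adjusted p = 0.09), and it ranged from 0.27 to 0.94 as single libraries were left out. Without either library at 50 ng/ml it was 0.94 (adjusted p = 0.018), and DESeq2 gave 0.62 (adjusted p = 0.026). The interaction of GSK126 with any BMP2 was -1.09 ± 0.41 (edgeR adjusted p = 0.5). In that interaction 0 of 5 members and 0% of all genes passed by edgeR, with 1 member at an unadjusted p under 0.05 and 0 called by DESeq2 or limma-voom.

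Lgr4 had GSK126 ratios of 1.09, 1.46 and 1.05 at 0, 10 and 50 ng/ml BMP2 on day 6. It changed by 0.25 ± 0.09 on average (edgeR adjusted p = 0.082), and by 0.1 to 0.34 as single libraries were left out. It was called without either of the 50 ng/ml libraries, at 0.34 and 0.33, and with library size alone as the scaling (0.29, adjusted p = 0.049). Rspo3 (0.01 ± 0.34) and Znrf3 (0.01 ± 0.05) were not called. On day 1 edgeR called 0 of 5 members with GSK126, as for 0% of all genes, with 0 at an unadjusted p under 0.05 and 0 by DESeq2 or limma-voom. With the day 1 libraries fitted alone, Lgr4 (0.1, adjusted p = 0.019) and Rspo2 (0.11, adjusted p = 0.038) were called higher, in a fit that called 17.5% of its 11578 genes, 9.57% higher.

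BMP2 on day 6, averaged over both doses, lowered both expressed R-spondins and raised Lgr4, where 28.7% of genes were called, 13.3% higher and 15.5% lower. Rspo2 changed by -1.04 ± 0.07 (edgeR adjusted p = 0.00017), and its level at 50 ng/ml was 0.411 of that without BMP2 under GSK126 and 0.38 without GSK126. Rspo3 changed by -1.65 ± 0.36 (edgeR adjusted p = 0.015) and was lower in 4 of 4 matched comparisons. Without the vehicle library it changed by -0.98 (adjusted p = 0.11), and without the 10 ng/ml library by -1.52 (adjusted p = 0.062). Lgr4 rose by 0.43 ± 0.1 (edgeR adjusted p = 0.017), with ratios of 1.57 and 1.63 at 50 ng/ml with and without GSK126. At 10 ng/ml its ratio was 1.3 with GSK126 (1.22 to 1.4) and 0.977 without it (0.901 to 1.06). Without the library of GSK126 alone Lgr4 changed by 0.34 (adjusted p = 0.082), and with library size alone as the scaling by 0.28 (adjusted p = 0.05, above the threshold before rounding).

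Rnf43 changed by 0.26 ± 0.25 with BMP2 on day 6 (edgeR adjusted p = 0.47), and its ratios lay on both sides of 1. Under GSK126 its ratio at 50 ng/ml was 0.767 (0.71 to 0.828), and without GSK126 1.94 (1.75 to 2.16). Without the vehicle library the average was -0.24, and without the library of GSK126 alone it was 0.85 (adjusted p = 0.015). Znrf3 changed by -0.06 ± 0.05 (edgeR adjusted p = 0.41).

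On day 1 the BMP2 effect on Rspo2 was already present, at -0.77 ± 0.06 (edgeR adjusted p = 0.0028), while 3.66% of all genes were called, 1.8% higher and 1.86% lower. The day 1 ratios at 50 ng/ml were 0.488 with GSK126 and 0.514 without it. The call was lost without the vehicle library (-0.8, adjusted p = 0.14) or the GSK126 library (-0.74, adjusted p = 0.13) of day 1. The other 4 tested members were not called, with log2 changes of -0.65 for Rnf43 to 0.19 for Rspo3. The BMP2 effect did not pass a test of its difference between the days for any of the 5 members by edgeR, where 9.14% of genes did, 3.82% higher and 5.33% lower. At an unadjusted p under 0.05 there were 3 such members, Rspo3, Rspo2 and Lgr4, DESeq2 called 1 and limma-voom 0.

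The higher BMP2 dose lowered Rspo2 further than the lower one on day 6, by -0.61 ± 0.08 on the log2 scale (edgeR adjusted p = 0.0076), where 11.8% of genes were called, 5.33% higher and 6.47% lower. Lgr4 was higher at 50 than at 10 ng/ml by 0.5 ± 0.11 (edgeR adjusted p = 0.033). This call was lost on leaving out any 1 day 1 library (adjusted p of 0.078 to 0.08), the day 6 library with 10 ng/ml (0.28, adjusted p = 0.12) or that with 50 ng/ml (0.37, adjusted p = 0.099), and with library size alone as the scaling (0.35, adjusted p = 0.054).

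Other ways of fitting ended several of these calls. With both BMP2 doses taken as 1 level, the adjusted p of the BMP2 effect on day 6 was 0.054 for Rspo2, 0.057 for Rspo3 and 0.17 for Lgr4. In the same fit it was 0.33 for the day 1 effect of BMP2 on Rspo2 and 0.46 for the difference of its GSK126 effect between the days. With each day fitted alone, the adjusted p of BMP2 on day 6 was 0.062 for Rspo3 and 0.095 for Lgr4, and that of the dose difference was 0.19 for both Rspo2 and Lgr4. The fit of day 1 alone called Lgr4 higher with BMP2 (0.1, adjusted p = 0.014), where it called 40.6% of its genes, 21.4% higher, against 3.66% with all 12 libraries fitted together.

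**Figure D4:**
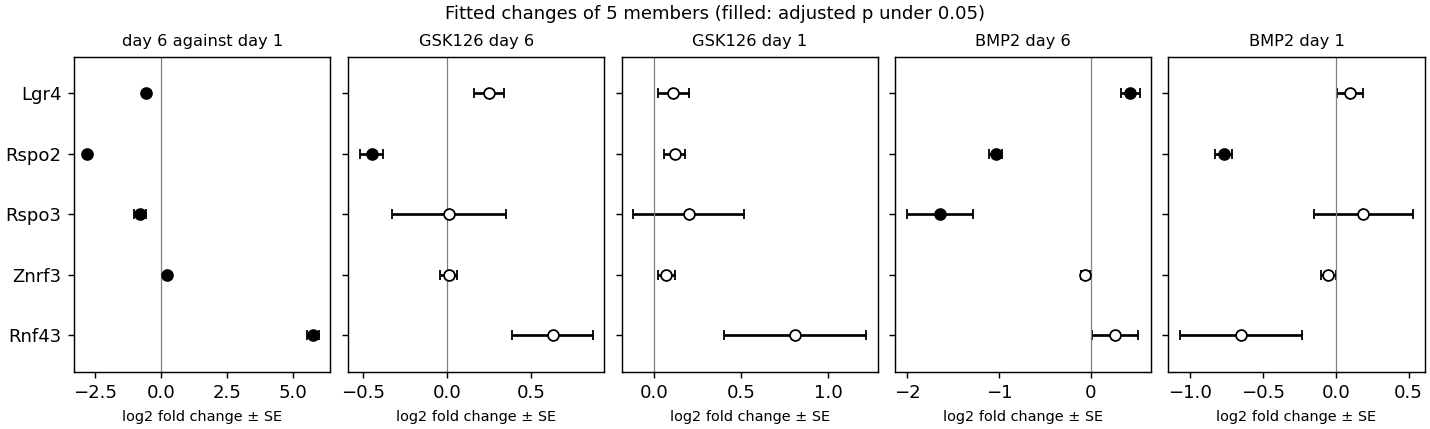
Fitted log2 fold changes (horizontal axis, ± SE) of the 5 tested members in the day, GSK126 and BMP2 comparisons, each positive where the first-named or treated condition is higher. Filled points have an edgeR adjusted p under 0.05 over all tested genes. All 5 points are filled for day 6 against day 1, where Rnf43 was tested through the day 6 libraries alone and had to differ. Rspo2, Rspo3 and Lgr4 are filled for BMP2 on day 6, and Rspo2 alone is filled for BMP2 on day 1 and for GSK126 on day 6.

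The pathway lists were chosen with earlier results of these data known, so their counts are given as a description. Tested Wnt target genes of the list were mostly higher on day 6. Of 16 canonical Wnt target genes listed, 11 were tested, and 9 were higher and 0 lower on day 6, with a median log2 change of 2.11 against 0.03 for all tested genes, of which 78.0% were called and 40.5% higher. Of the 11, Nkd2 reached the minimum through the day 6 libraries alone and had to differ between the days. Among the 10 that reached it on both days, 8 were higher and 0 lower. The other 5 listed genes were not tested. Axin2, a scaffold and feedback inhibitor of β-catenin, had 21.5, 13.5 and 6.78 CPM on day 6 with GSK126 at 0, 10 and 50 ng/ml BMP2, and 28.5, 31.5 and 17.1 CPM without GSK126. On day 1 its 6 libraries had 1.75 to 2.51 CPM. The day 6 change was 3.12 ± 0.14 for Axin2, 5.39 ± 0.28 for the receptor gene Tnfrsf19, 4.59 ± 0.3 for the transcription factor gene Tcf7 and 3.74 ± 0.26 for the Wnt deacylase gene Notum.

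Axin2 fell by 0.98 ± 0.17 with GSK126 (edgeR adjusted p = 0.0072), and 0 of the 11 targets were higher and 2 lower, where 28.3% of all genes were called. With BMP2 on day 6, Axin2 changed by -0.75 ± 0.18 (edgeR adjusted p = 0.02) and Wisp1, a matricellular protein gene, by 0.75 ± 0.11 (edgeR adjusted p = 0.0032), with 1 of 11 higher and 2 lower, where 28.7% of all genes were called. Without either day 6 library at 10 ng/ml the GSK126 change of Axin2 was -0.85 (adjusted p = 0.054). Its BMP2 change was -0.64 (adjusted p = 0.087) without GSK126 with 10 ng/ml, -0.3 (adjusted p = 0.043) without GSK126 alone and -1.17 (adjusted p = 0.00051) without vehicle. With day 6 fitted alone both calls of Axin2 were lost, at adjusted p of 0.052 for GSK126 and 0.09 for BMP2, and with both doses as 1 level at 0.08 and 0.2. On day 1, edgeR called 0 of 11 with BMP2, with 5 at an unadjusted p under 0.05, 2 called by DESeq2 and 0 by limma-voom.

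**Figure D5:**
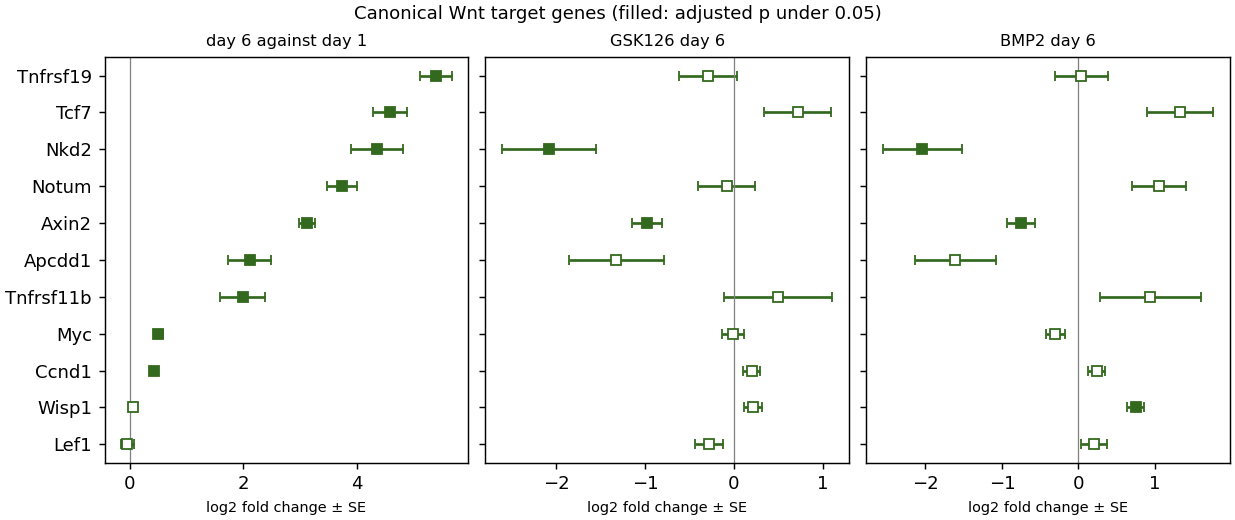
Fitted log2 fold changes (horizontal axis, ± SE) of the 11 tested canonical Wnt target genes for day 6 against day 1, GSK126 on day 6 and BMP2 on day 6, in the order of the day change. Filled squares have an edgeR adjusted p under 0.05. Of the day changes 9 are filled, all above 0, among them Nkd2, which was tested through the day 6 libraries alone.

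Of 13 tested Frizzled, LRP and other Wnt receptor genes, the clients of ZNRF3 and RNF43 among them, 6 were higher and 4 lower on day 6, against 78.0% of all genes called, with a median log2 change of 0.04. Fzd9 among them reached the minimum through the day 6 libraries alone, and without it 5 of 12 were higher and 4 lower. With GSK126 on day 6, 4 were higher and 4 lower, against 28.3% of all genes called, led by the Wnt5a receptor gene Ror1 (-1.05 ± 0.14) and the Frizzled gene Fzd5 (0.98 ± 0.11). With BMP2 on day 6, 2 were higher and 3 lower, against 28.7% of all genes called, led by Fzd5 (1.27 ± 0.12) and Fzd2 (-1.23 ± 0.06). Of 12 tested genes of Wnt ligands and their secretion, 10 were higher and 1 lower on day 6, where 40.5% of all genes were higher and 37.5% lower. Wnt7b and Wnt11 were tested through the day 6 libraries alone, and without them 9 of 10 were higher and 1 lower. The 1 lower was Wnt4 (-1.0 ± 0.17), and Porcn, the Wnt acyltransferase gene, led the higher ones that averaged at least 5 CPM (1.93 ± 0.07). With GSK126 on day 6, 4 ligand genes were higher and 0 lower, where 14.3% of all genes were higher, led by Wnt4 (1.25 ± 0.24) and Wnt5a (1.24 ± 0.13). With BMP2, 4 were higher and 0 lower, where 13.3% of all genes were higher, led by Wnt4 (1.48 ± 0.27). The BMP2 change of Wnt4 was 0.93 (adjusted p = 0.0013) without the vehicle library and 2.28 (adjusted p = 0.00014) without the library of GSK126 alone. With both BMP2 doses as 1 level, Fzd5 (adjusted p = 0.075) and Ror1 (0.09) missed the threshold with GSK126, and with day 6 fitted alone Wnt4 did with GSK126 (0.071) and BMP2 (0.06).

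Of 15 cytoplasmic Wnt signalling genes, 3 were higher and 9 lower on day 6, against 78.0% of all genes called, with β-catenin itself (Ctnnb1) at 0.87 ± 0.05. GSK126 on day 6 gave 0 higher and 3 lower, and BMP2 gave 2 higher and 0 lower, against 28.3% and 28.7% of all genes called. Of 5 tested genes listed as R-spondin co-receptors and turnover partners, 0 were higher and 3 lower on day 6 (78.0% of all genes called), and BMP2 on day 6 (28.7% called) lowered Dab2, an endocytic adaptor gene (-0.74 ± 0.07), a call lost with both doses as 1 level (adjusted p = 0.07).

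The genes whose log2 CPM followed Lgr6 most closely over the 12 libraries, by Pearson correlation among 10635 genes averaging at least 1 CPM, were Efemp2 (0.988), Arf6 (0.985), Ltbp2 (0.984), Slco3a1 (0.982), Bgn (0.982), Spire1 (0.981), Col2a1 (0.981) and Rhoc (0.98). All 12 points share the split between the days, which dominates these values. Over the 6 day 6 libraries alone, none of these 8 was among the 8 most alike genes, which were led by the osteocyte matrix gene Dmp1 (0.998). By Spearman correlation over the 12 libraries 1 of the 8, Col2a1, was among the first 8.

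Among the members, the correlation with Lgr6 over the 12 libraries was 0.97 for Lgr4, 0.64 for Rspo2, 0.15 for Rspo3, -0.71 for Znrf3 and -0.81 for Rnf43. Over the 6 day 6 libraries it was 0.94 for Lgr4, -0.93 for Rspo2, -0.65 for Rspo3, 0.21 for Znrf3 and 0.44 for Rnf43. Lgr4 thus had a high correlation with Lgr6 over both sets of libraries, across a far narrower range, and the Rspo2 value changed sign within day 6. The Lgr4 value was not particular to it, since over day 6 Rhoc with 0.961 ranked 145 and Col2a1 with 0.928 ranked 399 of 10635 genes. These ranks run from the highest positive value and do not cover negative ones such as that of Rspo2. The values over 12 libraries share the split between the days. On day 1 Lgr4 did not step up with each BMP2 dose as Lgr6 did.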

How the data were processed

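RNA-seq of 12 MC3T3 sc4 libraries was used, with groups taken from the titles. Gene counts and RPKM of every library stand in 1 table that the authors deposited. The submitters' processing notes name mm10, bcl2fastq, TopHat2 2.0.6 and HTSeq. Strand setting and gene annotation are not given in the sources used, so reads of overlapping or antisense genes cannot be told apart. The deposited RPKM values, scaled by the authors to gene length and library, were used only to compare genes.

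The deposited counts were tested as they stand with edgeR 4.0.16 (R 4.3.3), using TMM scaling, genes of at least 1 CPM in at least 2 libraries (12056) and quasi-likelihood tests. P-values were adjusted by Benjamini-Hochberg over all of these genes, with a threshold of 0.05. The fit held day, and GSK126 and each BMP2 dose within day, which left 4 residual degrees of freedom for 8 coefficients. The interaction came from a fit of day by GSK126 by any BMP2. DESeq2 1.42.0, voom in limma 3.58.1, other scalings, filters and fits, and leaving out each library were alternatives. The code was tested on simulated counts.

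The 9 members and the 5 pathway lists were chosen with earlier results of these data known. Named list genes are up to 4 called genes per list and comparison that average at least 5 CPM, by size of change, of which the leading ones are given. The genes most like Lgr6 are the 8 with the highest Pearson correlation of log2 CPM (prior count 2).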

Additional observations from a re-analysis of the deposited data

Results flagged for a closer look

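Each of the following genes was called by edgeR for a difference between the days in its response to GSK126 or BMP2. The difference is the day 6 effect minus the day 1 effect (log2 scale), with p-values adjusted over all tested genes. For GSK126 the differences were -0.57 for Rspo2, -1.3 for Axin2, -0.39 for Dvl2, 0.91 for Fzd5, -1.29 for Ror1, -0.67 for Ror2 and 1.1 for Wnt5a. For BMP2 they were -0.83 for Dab2, 0.61 for Dvl1, -0.78 for Fzd2, -0.59 for Fzd6, 0.71 for Wisp1, 1.02 for Wnt10b, 0.86 for Wnt5a and 0.86 for Wnt5b. Each rests on 1 library per condition. They come from the 5 tested members and from pathway lists with 11, 13, 15, 5 and 12 tested genes. Of all tested genes, 10.5% were called in the GSK126 difference (3.94% higher, 6.52% lower) and 9.14% in the BMP2 difference (3.82% higher, 5.33% lower). With both BMP2 doses as 1 level these shares were 2.12% and 0.373%. In the GSK126 difference limma-voom called 0 of the 11 canonical Wnt target genes, so Axin2 was not called there. The Rspo2 call was lost without any 1 day 1 library. Not every called list gene is given, and Fzd7 (-0.53 for GSK126 and -0.61 for BMP2) was called as well.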

How the results depend on the processing

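No paired analysis was possible because each condition had 1 library and the labels carry no replicate numbers, and the day comparison already averages the 6 treatments matched across the days. The number of the 5 tested members called (GSK126 on day 6: 1) was 2 with library size alone or DESeq2, and 0 with day 6 fitted alone or both doses taken as 1 level. For GSK126 on day 1 (0) it was 2 with day 1 alone. For BMP2 on day 6 (3) it was 1 with day 6 alone and 0 with doses as 1 level, and on day 1 (1) it was 2 and 0. With library size alone Lgr4 also lost its BMP2 call on day 6 (0.28, edgeR adjusted p = 0.05, above the threshold before rounding). For 50 against 10 ng/ml (2) the number called was 1 with library size alone and 0 with day 6 alone. The difference of the GSK126 effect between days (1) gave 0 with doses as 1 level, and that of BMP2 (0) gave 1 with DESeq2. The share of all genes called moved with the setting as well. For GSK126 on day 6 it was 28.3%, against 25.1% with library size alone, 8.1% with day 6 alone and 15.1% with doses as 1 level. For BMP2 on day 6 it was 28.7%, against 35%, 8.79% and 10.9% in the same order.

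Leaving out each library in turn gave 4 to 5 members for the day, 1 to 3 for GSK126 and 2 to 3 for BMP2 on day 6. It gave 0 for GSK126 and 0 to 1 for BMP2 on day 1, 1 to 2 for the dose, 0 to 1 and 0 to 3 for the GSK126 and BMP2 differences between days, and 0 for the interaction. In the pathway lists it gave 41 to 47 genes for the day, 9 to 23 for GSK126 on day 6, 13 to 31 for BMP2 on day 6 and 0 to 14 for BMP2 on day 1. The lists held 11, 13, 15, 5 and 12 tested genes. The leave-out fits called 71.3% to 80.2% of all genes for the day and 15.2% to 35.3% for GSK126 on day 6. For BMP2 they called 19.4% to 40.3% on day 6 and up to 12.4% on day 1. List calls for GSK126 on day 6 were 3 with day 6 alone and 7 with doses as 1 level. Of all genes, 8.1% and 15.1% were called there. List calls for BMP2 on day 6 were 26 with library size alone, 9 with day 6 alone and 8 with doses as 1 level. Of all genes, 35%, 8.79% and 10.9% were called. List calls for BMP2 on day 1 were 7 by DESeq2, 30 with day 1 alone and 0 with doses as 1 level. Of all genes, 7.56%, 40.6% and 0.00829% were called.

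Values near 0 changed sign. For GSK126 on day 6, Rspo3 had -0.01 with DESeq2 size factors, -0.2 with limma-voom, -0.04 with at least 1 CPM in 6 libraries and -0.1 with halved counts. Without single day 6 libraries it had -0.16 (10 ng/ml), -0.31 (50 ng/ml), -0.16 (GSK126 with 10 ng/ml) and -0.3 (GSK126 with 50 ng/ml), in a range up to 0.55. Znrf3 had -0.0 with DESeq2 size factors and the DESeq2 test, and -0.01 without either 50 ng/ml library, in a range up to 0.04. Rnf43 with BMP2 on day 6 had -0.24 without vehicle, in a range up to 0.85, and Rspo3 with BMP2 on day 1 had -0.06 without vehicle and -0.04 without 50 ng/ml, in a range up to 0.47. The causes were not tested.

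On library size alone, Lgr6 on day 1 had 73.2, 131 and 155 CPM with GSK126 and 59.9, 111 and 143 CPM without it, and 26.3 CPM on day 6 with GSK126 and 50 ng/ml. Depth limits Lgr5, Rspo1, Rspo4 and Lgr6 at under 10 pairs.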
